A study of Mus musculus with 6 samples.

Results

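Imprinted genes are expressed mainly from the copy inherited from 1 parent. The 10 genes described here, H19, Igf2, Dlk1, Meg3, Cdkn1c, Peg3, Plagl1, Mest, Grb10 and Nnat, are imprinted genes of growth control. They were taken from a list of names that was chosen with earlier results of these data known. All 10 had at least 1 probe on the array, with 18 probes in all, among 23462 genes that could be named. Their levels were compared between the colon of 3 Islr knockout mice and that of 3 control mice, all male, with 1 array per animal. Islr encodes a secreted protein with leucine-rich repeats and an immunoglobulin domain that marks mesenchymal cells. According to the sample source, all 6 animals of both genotypes drank 3.5% dextran sulfate sodium, which injures the colonic epithelium, for 5 days and then recovered for 1 day. Another field of the labels gives no treatment. The labels give neither the age of the mice nor the cells in which Islr was deleted, nor the alleles that the controls carry.

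Many imprinted genes are abundant in fetal and newborn tissues and fall to low levels after birth, when they remain mostly in stromal, endothelial, neuroendocrine and fat precursor cells. Genes expressed from the paternal copy, such as Igf2, Dlk1, Peg3, Plagl1 and Mest, are often growth promoting, and genes expressed from the maternal copy, such as H19, Cdkn1c and Grb10, often restrain growth. The transcription factor Plagl1 and the RNA H19 are described as regulators of the other genes of this network, which is why these genes are often considered together.

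Several of these transcripts also carry microRNAs, whose sequences are shown because a change in the host RNA could be read together with them. The array probes measured the host genes, and no microRNA level was measured. Those of 4 members are given as examples. The mature sequences below are those of RefSeq for mouse build GRCm38.p6, written 5′ to 3′ with the seed (bases 2 to 8) in capitals.
mmu-miR-675-5p (inside H19, chr7:142577112-142577133, minus strand): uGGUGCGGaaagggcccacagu
mmu-miR-675-3p (inside H19, chr7:142577078-142577099, minus strand): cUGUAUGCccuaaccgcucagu
mmu-miR-483-5p (inside Igf2, chr7:142654968-142654989, minus strand): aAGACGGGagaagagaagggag
mmu-miR-483-3p (inside Igf2, chr7:142654932-142654952, minus strand): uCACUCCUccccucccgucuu
mmu-miR-335-5p (inside Mest, chr6:30741314-30741336, plus strand): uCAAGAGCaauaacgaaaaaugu
mmu-miR-335-3p (inside Mest, chr6:30741354-30741375, plus strand): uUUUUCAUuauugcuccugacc
mmu-miR-770-5p (inside Meg3, chr12:109563710-109563731, plus strand): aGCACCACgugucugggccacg
mmu-miR-770-3p (inside Meg3, chr12:109563744-109563765, plus strand): cGUGGGCCugacguggagcugg
No pair among these 8 sequences shared a seed. By the same annotation H19 and Igf2 are neighbours on chromosome 7, with 0 protein-coding genes between them, and Dlk1 and Meg3 are neighbours on chromosome 12, also with 0 between them.

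RefSeq promoter windows, from 250 bases before to 50 bases after a transcription start, were matched for 8 of the 10 genes, with 15 windows in all since some genes have several starts. The 3 windows below are shown for a motif match (Peg3) and for the members with the lowest adjusted p of the set (Grb10 and Nnat). They are on build GRCm38.p6, written 5′ to 3′ along the gene's strand. In the Peg3 window the capitals mark GGGGCCCC, the core of the sequence bound by Plagl1, a palindrome that reads the same on both strands. In the Grb10 and Nnat windows the capitals mark CpG dinucleotides, the sites of DNA methylation.
Peg3 (chr7:6730370-6730669, minus strand): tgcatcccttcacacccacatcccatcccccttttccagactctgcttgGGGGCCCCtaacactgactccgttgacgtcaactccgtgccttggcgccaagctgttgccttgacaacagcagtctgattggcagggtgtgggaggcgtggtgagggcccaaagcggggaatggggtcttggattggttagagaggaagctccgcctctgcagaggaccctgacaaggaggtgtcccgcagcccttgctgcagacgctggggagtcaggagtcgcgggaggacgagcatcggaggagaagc
Grb10 (chr11:12037371-12037670, minus strand): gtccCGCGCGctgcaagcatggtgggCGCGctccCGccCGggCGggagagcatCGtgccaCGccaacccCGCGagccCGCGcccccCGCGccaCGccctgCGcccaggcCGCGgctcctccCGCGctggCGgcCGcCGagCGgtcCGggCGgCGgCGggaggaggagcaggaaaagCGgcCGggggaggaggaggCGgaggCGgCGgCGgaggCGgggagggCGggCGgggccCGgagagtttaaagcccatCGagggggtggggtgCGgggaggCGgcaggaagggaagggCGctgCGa
Nnat (chr2:157559828-157560127, plus strand): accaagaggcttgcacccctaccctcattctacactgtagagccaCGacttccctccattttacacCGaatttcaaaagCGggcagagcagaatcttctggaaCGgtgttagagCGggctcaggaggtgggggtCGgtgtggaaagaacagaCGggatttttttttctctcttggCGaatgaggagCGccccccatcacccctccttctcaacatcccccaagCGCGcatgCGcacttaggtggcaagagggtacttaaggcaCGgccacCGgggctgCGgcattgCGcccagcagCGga
The Peg3 match begins 201 bases before the start. It was the only match among the 15 windows, against 1.08% of all 32851 promoters in the table. The Grb10 window, of the more upstream of its starts in the table, held 45 CpG dinucleotides and that of Nnat held 17. Over the 15 windows the median was 13 CpG, with a range from 1 to 45, and 12 windows exceeded the median of all promoters, which was 7. The windows of a gene can overlap, so these counts only describe the sequences. Methylation was not measured.

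None of the 10 genes differed between the genotypes at an adjusted p under 0.05 in limma (0 of 10). Of all 35351 tested probes 3.97% did, so a count of 0 among 10 genes does not set them apart from the array. Each gene is represented here by its brightest tested probe, and all 10 were tested. The log2 difference, knockout minus control, was below 0 for 8 genes and above 0 for Cdkn1c and Plagl1, and its median was -0.65, against 0.00 over all tested probes. H19 and Dlk1 met the background rule through the controls alone, and among the 8 genes well above background on all 6 arrays 6 were lower, with a median of -0.48. An unadjusted p under 0.05 was reached by 3 of the 10, Igf2, Grb10 and Nnat, against 26.8% of all tested probes, so that share was close to the background. At 4 genes, Igf2, Peg3, Grb10 and Nnat, every knockout lay below every control, against 18% of the probes measured on all arrays. Without control replicate 1 this held for 5 genes, with Mest added, against 31% of probes. Counting the further probes, 14 of the 16 tested probes were lower in the knockout and 0 were called. The median of the 10 genes was -0.34 with array weights, -0.47 without control replicate 1 and -0.45 without knockout replicate 1. It was -0.28 without both, with 7 of 10 lower, a fit chosen after seeing the data.

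**Figure D1:**
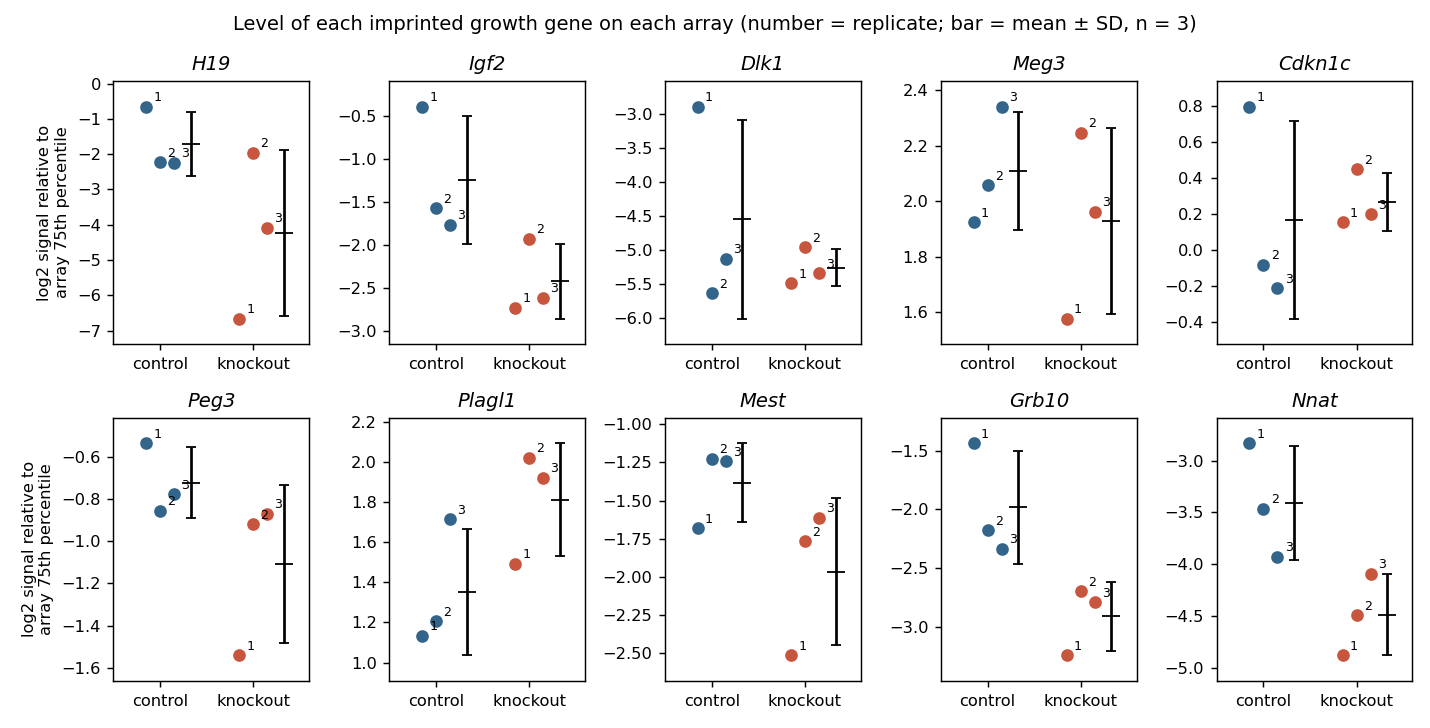
Level of each of the 10 genes on each array, in log2 units above or below the 75th percentile of its array (vertical axis, a separate scale per gene), for controls (blue) and knockouts (red), with the replicate number beside each point and the mean ± SD (n = 3) as a bar. Knockouts and controls do not overlap at Igf2, Peg3, Grb10 and Nnat, and control replicate 1 is the highest array at 7 of the 10 genes.

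Levels are given throughout as the log2 signal relative to the 75th percentile of the same array, so that 0 is a bright signal and each step of 1 is a doubling. Levels of different genes come from different probes and are not compared with each other. The Islr probe was read first as a check of the labels: its level was 1.57, 1.24 and 1.21 in controls 1, 2 and 3 and -1.40, -0.93 and -1.31 in knockouts 1, 2 and 3. The difference was -2.44 (SE 0.21, adjusted p = 0.0171 in limma), with the outlier spot of control 1 left out, and the adjusted p was 0.0580 without knockout 3. Where the probe lies relative to the deleted part of Islr is not given in the sources used here. Markers of epithelium, smooth muscle, endothelium, enteric neurons and immune cells were measured on these arrays, so the samples held mixed tissue although the series' text speaks of a flow separation. In such tissue, fewer cells of a type and less RNA per cell cannot be told apart. The sample titles carry animal numbers, and the p-values measure the spread between these samples. The positions on the slide separate the genotypes by row, so row and genotype cannot be told apart.

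Igf2 encodes insulin-like growth factor 2, a secreted ligand that drives fetal growth through the IGF1 and insulin receptors. Its level was -0.39, -1.57 and -1.76 in controls 1, 2 and 3. In knockouts 1, 2 and 3 it was -2.74, -1.93 and -2.62. The groups did not overlap, but control 1 stood well above the other controls and knockout 2 lay just below them. The difference was -1.19 (SE 0.41, 95% interval -2.16 to -0.21), a 2.28-fold lower signal that did not pass (adjusted p = 0.127 in limma). Without control 1 the difference was -0.76 (adjusted p = 0.145). The dimmer Igf2 probe was well above background on control 1 alone and was not tested. Its signal there was 209.3 intensity units, against 24.4 to 93.2 on the other 5 arrays.

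Dlk1 encodes a membrane protein with EGF-like repeats, released as a soluble ligand, that holds fat precursors in an undifferentiated state. Its level was -2.89 in control 1 and -5.64 and -5.13 in controls 2 and 3. The knockouts were at -5.49, -4.96 and -5.35, and the signal was well above background on 2 of these 3 arrays. Control 1 alone was high, and the remaining 5 arrays lay within a narrow band. The difference was -0.71 (SE 0.68, adjusted p = 0.537), and it became 0.12 without control 1 (adjusted p = 0.787), the opposite direction. A second Dlk1 probe was not well above background on any array.

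Grb10 encodes an adaptor protein that binds the insulin and IGF1 receptors and dampens their signalling. Its brighter probe read -1.44, -2.18 and -2.33 in controls 1, 2 and 3, with the knockouts at -3.24, -2.70 and -2.79. All knockouts were below all controls, with control 1 the highest array and knockout 1 the lowest. The difference was -0.93 (SE 0.28, 95% interval -1.61 to -0.25), a 1.90-fold lower signal (adjusted p = 0.101). Without control 1 it was -0.65. The dimmer probe also had no overlap between the groups, with a difference of -0.48 (SE 0.22, adjusted p = 0.218).

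**Figure D2:**
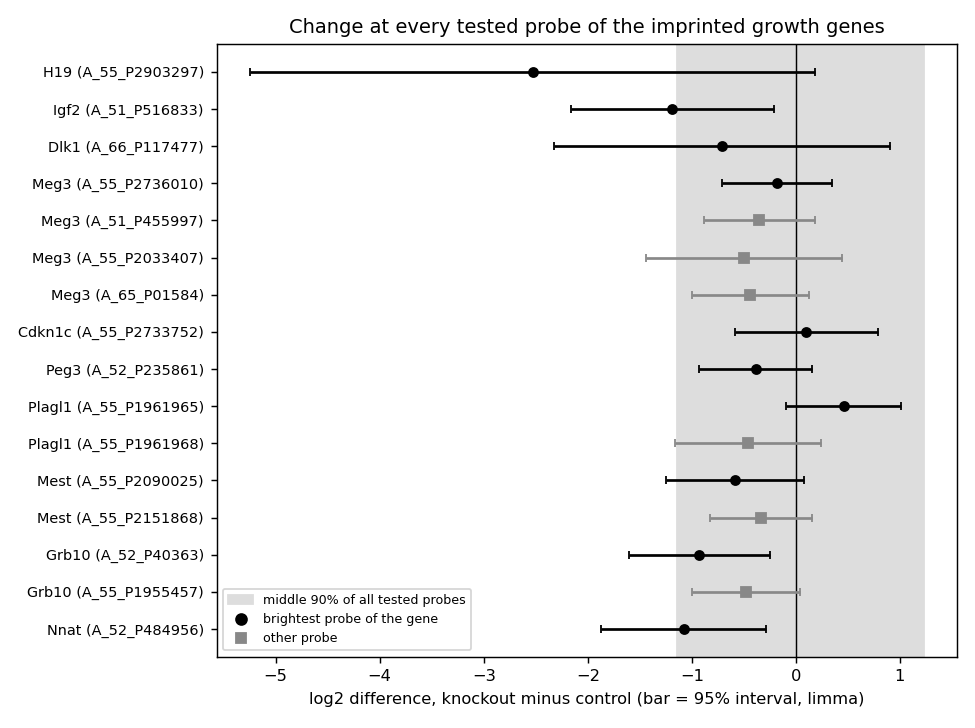
Log2 difference, knockout minus control, at each of the 16 tested probes of the 10 genes (horizontal axis), with its 95% interval from limma; black circles are the brightest probe of a gene and grey squares the other probes, and the grey band holds the middle 90% of all tested probes (-1.14 to 1.23). The intervals of Igf2, Nnat and the brighter Grb10 probe lie below 0, the H19 interval is the widest, and the Plagl1 probes lie on opposite sides of 0.

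H19 is a long non-coding RNA transcribed from the maternal copy of the locus it shares with Igf2. Its level was -0.65, -2.24 and -2.24 in controls 1, 2 and 3, and -6.66, -1.96 and -4.09 in knockouts 1, 2 and 3. Knockout 2 exceeded controls 2 and 3, while knockout 1 was not well above background, at 48.4 intensity units against 1384 to 4045 in the controls. H19 met the background rule through the controls alone, so the size of its difference rests in part on a signal not above background. The mean difference was -2.53, with a wide interval (SE 1.14, 95% interval -5.25 to 0.19, adjusted p = 0.211). It was -1.32 without knockout 1 and -3.67 without knockout 2. The knockouts spanned 4.70 log2 units and the controls 1.59, so the range within the knockouts exceeded the difference between the groups. Set beside its neighbour Igf2, H19 had its highest level on the same array, control 1, and its lowest on the same array, knockout 1. The same arrays were highest and lowest at Peg3, Grb10 and Nnat, so this was not particular to the locus.

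Meg3 is the maternally expressed long non-coding RNA of the Dlk1 locus. Its brightest probe read 1.93, 2.06 and 2.34 in controls 1, 2 and 3, and the knockouts were at 1.58, 2.25 and 1.96. The groups overlapped, and the difference was -0.18 (SE 0.22, 95% interval -0.71 to 0.35, adjusted p = 0.641). The difference was -0.00275 without knockout 1 and -0.062 without control 3. Its other 3 probes gave -0.35, -0.50 and -0.44, so all 4 were lower and none passed; knockout 1 was the lowest array at each of them. Control 1 was not high at the brightest probe, unlike at Dlk1.

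Cdkn1c encodes p57, an inhibitor of cyclin-dependent kinases that brings cells out of the cell cycle. Its level was 0.79, -0.085 and -0.22 in controls 1, 2 and 3 and 0.15, 0.45 and 0.20 in knockouts 1, 2 and 3. Control 1 was the highest array and the other controls were below every knockout. The difference was 0.10 (SE 0.29, 95% interval -0.59 to 0.79, adjusted p = 0.851). It was 0.41 without control 1 and -0.090 without control 3, so its sign rested on single arrays.

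Peg3 encodes a zinc finger protein found in stromal and progenitor cells. It read -0.54, -0.85 and -0.78 in controls 1, 2 and 3, and the knockouts were at -1.54, -0.92 and -0.87. The groups did not overlap, but by a narrow margin, and knockout 1 stood apart from the other knockouts. The difference was -0.39 (SE 0.23, adjusted p = 0.316). It was -0.17 without knockout 1 and -0.16 with array weights.

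Plagl1, also called Zac1, encodes a zinc finger transcription factor that slows proliferation. Its brighter probe read 1.13, 1.21 and 1.72 in controls 1, 2 and 3, and among the knockouts 1.49, 2.02 and 1.92. The second probe read 1.41, 0.61 and 0.59 in controls, and the knockouts read 0.056, 0.76 and 0.41. The probes therefore disagreed in sign, with differences of 0.46 (SE 0.23, adjusted p = 0.253) and -0.46 (SE 0.29, adjusted p = 0.356), and neither passed. The files assign both to the same transcript accession and give no position for them.

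Mest encodes a membrane enzyme of the hydrolase fold that is abundant in mesoderm and in expanding fat. Its level was -1.68, -1.23 and -1.24 in controls 1, 2 and 3, and the knockouts read -2.52, -1.77 and -1.61. Controls 2 and 3 were above every knockout, whereas control 1 was below knockout 3. The difference was -0.58 (SE 0.28, adjusted p = 0.235), and -0.31 without knockout 1. The dimmer probe differed by -0.34 (SE 0.21, adjusted p = 0.336).

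Nnat encodes neuronatin, a small membrane protein of the endoplasmic reticulum found in neurons, endocrine cells and fat. Its level was -2.83, -3.46 and -3.93 in controls 1, 2 and 3 and -4.88, -4.49 and -4.09 in knockouts 1, 2 and 3. Every knockout was below every control, with control 3 and knockout 3 close together. The difference was -1.08 (SE 0.33, 95% interval -1.87 to -0.29), a 2.11-fold lower signal (adjusted p = 0.101). With 1 array left out at a time it lay between -1.34 and -0.79, and it passed in none of these fits.

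For each gene taken alone, the exact permutation test of 3 against 3 arrays cannot give a two-sided p below 0.1. It gave that value for Igf2, Peg3, Grb10 and Nnat, and 0.2 to 0.8 for the other 6 genes. Groups that do not overlap always give 0.1, so this restates the lack of overlap at these genes. Every knockout lay below every control at 18% of the probes measured on all arrays.

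**Figure D3:**
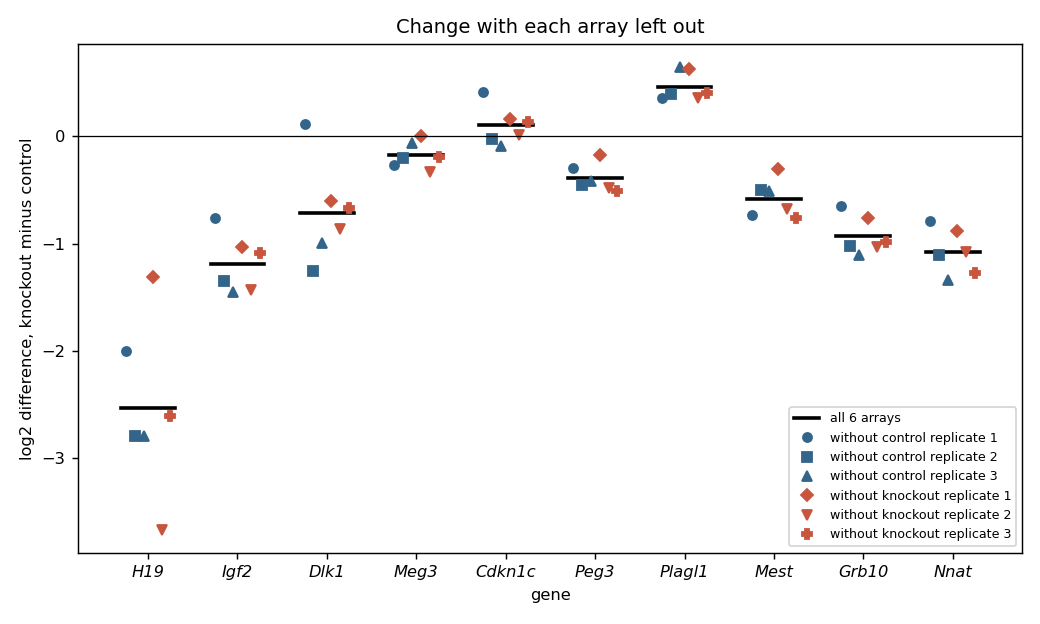
Log2 difference, knockout minus control (vertical axis), of each of the 10 genes with all 6 arrays (black line) and with each array left out in turn (blue symbols, a control; red symbols, a knockout). Dlk1 moves from -0.71 to 0.12 without control replicate 1, and H19 ranges from -3.67 to -1.32.

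Control 1 and knockout 1 stood apart at most of these genes. They also had the most outlier spots, 13.6% and 16.0% of the array, against 3.26% to 9.05% on the others. None of the brightest probes of the 10 genes was flagged as an outlier on any array. Keeping the outlier spots therefore could not change their median difference of -0.65. The part of array quality in the levels was not tested. Control 1 was the highest of the 6 arrays at 7 of the 10 genes (H19, Igf2, Dlk1, Cdkn1c, Peg3, Grb10 and Nnat), a position it held at 13.2% of the tested probes measured on all arrays. Knockout 1 was the lowest array at 7 of the 10 genes (H19, Igf2, Meg3, Peg3, Mest, Grb10 and Nnat), against 29.1% of those probes. Over the 10 genes the median level was -0.59 in control 1 and -1.40 and -1.50 in controls 2 and 3. It was -2.63 in knockout 1 and -1.85 and -2.12 in knockouts 2 and 3. Control 1 exceeded the mean of the other controls by 2.49 at Dlk1, 1.59 at H19, 1.28 at Igf2 and 0.94 at Cdkn1c. At Meg3, Plagl1 and Mest it was below that mean, by values of -0.27, -0.33 and -0.45.

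Several cell type marker lists also differed between arrays of 1 genotype. The mean level of 6 adipocyte markers was 1.17 in control 1 and -2.89 and -3.02 in controls 2 and 3, and in knockouts 1, 2 and 3 it was -3.36, -0.51 and -0.67. Adipoq, which encodes adiponectin, a hormone of fat cells, read 2.19 in control 1, -4.11 and -5.04 in controls 2 and 3, and -4.88, -0.63 and -0.46 in the knockouts. Control 1 was thus the highest array for Adipoq as it was at Dlk1, and knockouts 2 and 3 exceeded the other controls for Adipoq. The 6 adipocyte markers were well above background on all 6 arrays. In the knockout 4 of them were higher and 0 were called, against 3.97% of all tested probes. They did not all follow that order, since Lep, which encodes leptin, was lowest in control 1. Control 1 was also the highest control for enteroendocrine markers (0.86 against -0.90 and -0.65), colon epithelium markers (2.49 against 0.22 and 1.76) and macrophage markers (1.56 against 0.98 and 0.89).

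Fibroblast markers averaged 1.18 to 1.33 in controls and 0.41 to 0.94 in knockouts, with 9 of 9 tested genes lower and 0 called. Endothelial markers averaged 0.41 to 0.59 in controls and -1.32 to -0.20 in knockouts, with 9 of 9 lower and 0 called. In both lists knockout 1 was the lowest array. Markers of enteric neurons and glia averaged -0.03 to 0.26 in controls and -0.46 to -0.12 in knockouts, with 9 of 10 lower. The 15 skeletal muscle markers averaged -2.92 to -2.67 in controls and -2.13 to -1.84 in knockouts. Their median difference was 0.13, with 11 higher and 4 lower, and 3 of the 15 were called, against 3.97% of all tested probes. Myh1 and Tnni1 rose by 2.07 and 3.72 in the knockout (adjusted p = 0.0160 and 0.0184). Myh2 was called higher too, but it was well above background on 3 arrays only, the knockouts, so its difference has no exact size. The part of these cell types in the levels of the imprinted genes was not tested.

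**Figure D4:**
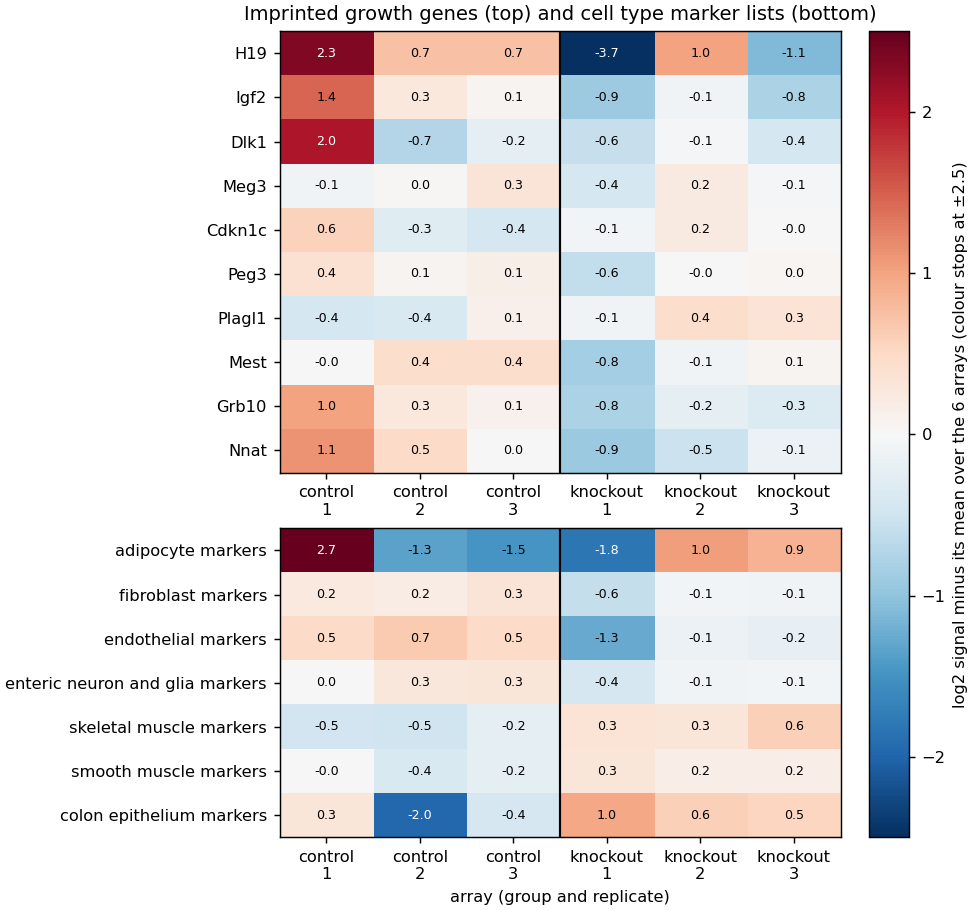
Log2 signal minus its mean over the 6 arrays for each of the 10 genes (top) and for the mean of each of 7 cell type marker lists (bottom), with the arrays in columns, a line between controls and knockouts, and the value in each cell. Control replicate 1 is high at H19, Igf2, Dlk1, Grb10 and Nnat and in adipocyte markers, and knockout replicate 1 is low at most of the genes and in endothelial markers.

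Among 54 other imprinted genes 41 were tested, with a median log2 difference of -0.026, 20 higher and 21 lower. Asb4, which encodes a subunit of ubiquitin ligases, was the only one past the threshold, 1 of 41 against 3.97% of all tested probes. It read -1.78, -1.99 and -2.85 in controls and -5.74, -4.11 and -4.29 in knockouts, with a difference of -2.51 (SE 0.49, adjusted p = 0.0468). Its signal cleared background on only 2 of the 3 knockouts, and it met the background rule through the controls alone, so the size of the difference is uncertain. That call was lost in 5 of the 6 fits that left out 1 array, all but that without knockout 2 (adjusted p up to 0.129). Kcnq1, a potassium channel gene of the same imprinted domain as Cdkn1c, had the largest rise of the list without passing, 2.46 (SE 0.63, adjusted p = 0.0721). Rian, a non-coding RNA downstream of Meg3, differed by -0.67 (SE 0.22, adjusted p = 0.111). Other listed genes of that region did not move together. Mirg differed by 0.0068, Dio3 by 0.10 and Rtl1 by 0.31, whereas Begain differed by -0.74, and none of them passed.

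Of 15 genes listed under IGF and insulin signalling, which include proteins that bind Igf2 mRNA, 13 were tested. Their median was -0.38 with 9 lower, and 2 of 13 were called, against 3.97% of all tested probes. Igfbp3 and Igfbp4 encode secreted proteins that bind IGF1 and IGF2. Igfbp3 read 1.73, 1.51 and 1.46 in controls and 0.05, 0.54 and -0.17 in knockouts, and it fell by 1.43 (SE 0.22, adjusted p = 0.0321). Igfbp4 read 1.84, 1.69 and 1.33 in controls, with knockouts at -1.78, -0.51 and -0.52, and it fell by 2.45 with 1 outlier spot left out (SE 0.44, adjusted p = 0.0468). The Igfbp3 call was lost without control 2 or 3 or knockout 1 or 3 (adjusted p up to 0.0924). That of Igfbp4 was lost without any 1 of the knockouts (up to 0.0936), and it could not be tested in 2 of the 6 fits. The fit without control 1 removed no further Igfbp4 value, since the outlier spot left out was that of control 1. Igf1, the other IGF ligand, differed by -1.60 (SE 0.37, adjusted p = 0.0615) and the receptor Igf1r by -0.53 (SE 0.15, adjusted p = 0.0908).

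Of 17 genes listed as factors that set, maintain or remove imprints 15 were tested, with a median of -0.27 and 12 lower. Among them 1 of 15 was called, against the same 3.97%. Dnmt3l, a cofactor of the DNA methyltransferases that place imprints in germ cells, read -1.06, -0.77 and -1.30 in controls, with knockouts at -5.11, -4.02 and -3.51. It fell by 3.17 (SE 0.41, adjusted p = 0.0260), and the call was lost without control 2, control 3 or knockout 3 (adjusted p up to 0.0762). Zfp57, the zinc finger protein that protects imprints in the embryo, differed by -1.19 (SE 0.39, adjusted p = 0.112). Dnmt1, the maintenance methyltransferase, differed by -0.70 (SE 0.35, adjusted p = 0.252).

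**Figure D5:**
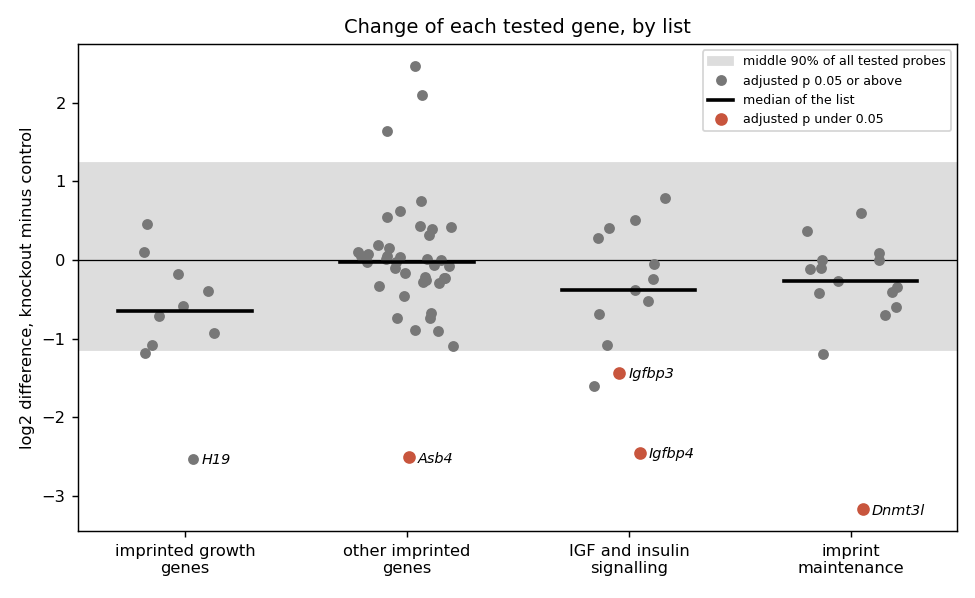
Log2 difference, knockout minus control (vertical axis), of each tested gene in 4 lists, with the list's median as a line, genes past the threshold in red, and the middle 90% of all tested probes as a grey band. Among these 4 lists the 10 growth genes have the lowest median, -0.65, or -0.48 over the 8 well above background on all arrays. Endothelial markers, not shown, had a lower median, -0.99. None of the 10 growth genes passed the threshold, while Asb4, Igfbp3, Igfbp4 and Dnmt3l passed in the other lists.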

How the data were processed

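Colon RNA of 6 mice was amplified, labelled with 1 dye and hybridised to 1 Agilent array per animal, per the labels' protocols. Agilent Feature Extraction 11.5.1.1 read the red channel alone, per the file headers, whereas the submitters' processing notes name version 10.7 and the labels name the green dye. The deposited processed signal is an intensity on a linear scale, with no scaling between arrays; the value table deposited by the authors correlated with it at 0.999999 or above on the log2 scale on every array and served as an alternative.

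Log2 of the processed signal was taken, less the 75th percentile of each array (4911 to 7110 intensity units). Outlier spots (3.26% to 16.0% of an array) were left out, and 0 spots were saturated. A probe was tested if well above background on all 3 arrays of a group with at least 2 usable values per group: 35351 of 56605 probes. Between 69.4% and 75.4% of spots were well above background, and the number of arrays limits the precision.

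Groups were compared over all tested probes with lmFit and eBayes of limma 3.58.1 (R 4.3.3), two-sided, with Benjamini-Hochberg adjustment, and the code was tested on simulated data. Values of single arrays are printed with outlier spots kept; means, SDs and tests leave them out. Probes were named by RefSeq accession (33767 of 56605). The brightest tested probe stood for a gene. The text names the 10 genes, Islr and, of each list, the genes past the threshold or otherwise at most 2 with the largest change. Rian, Mirg, Dio3, Rtl1, Begain, Igf1, Igf1r, Zfp57, Dnmt1, Kcnq1, Adipoq and Lep fall outside this rule and were chosen after their values were seen. The members and lists were chosen with earlier results of these data known. Further marker lists were also counted, given here as genes tested and median log2 difference. They were interstitial cells of Cajal (2, -0.99), enteroendocrine cells (6, 0.88), colon epithelium (12, 1.21) and smooth muscle (8, 0.38). Macrophages (8, -0.66) and neutrophils (8, -2.83) were also among them. Of the neutrophil markers 5 were called, all lower (Cxcr2, Mmp8, Retnlg, S100a8 and S100a9), against 3.97% of all tested probes. Alternatives were another background correction, scaling, filter, array weights, outlier spots kept, the value table, gene means over probes, and each array left out.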

Additional observations from a re-analysis of the deposited data

How the results depend on the processing

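No member was called under any of the alternatives, including each array left out, and 7 to 9 of 10 members were lower (6 of 8 where all arrays had to be well above background). The calls over all probes ran from 40 of 31751 without knockout replicate 3 to 8119 of 35351 with array weights. A count of 0 of 10 therefore does not mean the same in each setting. Dlk1 turned to 0.11 with array weights, 0.12 without control replicate 1 and 0.23 without both replicate 1 arrays (chosen after seeing the data), and it reached -1.25 without control replicate 2. Cdkn1c was -0.090 without control replicate 3 and -0.02 without control replicate 2, and it was 0.41 without control replicate 1 and 0.47 without both replicate 1 arrays. With an array left out the Islr difference lay between -2.58 and -2.34, and its adjusted p was 0.0580 without knockout replicate 3 (-2.39). Without control replicate 2 or 3 it could not be tested. Without control replicate 1 it was unchanged at -2.44, since the outlier spot of that array was already left out. The count of calls over all probes depended most on the setting: 2558 with normexp, 2185 with quantile normalization, 2249 with median centring, 484 with no filter on background and 8119 with array weights, against 1403, and 40 to 2114 with an array left out. The share of calls that were higher was 51.1% with normexp and 50.7% with array weights, against 39.1%, and with an array left out it ran from 10% (without knockout replicate 3) and 24.7% (without knockout replicate 1) to 55.1% (without control replicate 1). The cause was not tested. No paired analysis was possible because the replicate numbers only name the animals. A dim signal limits H19 in knockout replicate 1. Dlk1 was dim on the arrays other than control replicate 1 (109 to 187 intensity units), though well above background on 3 controls and 2 knockouts.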
